A study of Mus musculus with 30 samples.

Results

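The members described here are 7 genes of T cell costimulation: the TNF family ligands Tnfsf4 (OX40 ligand) and Tnfsf8 (CD30 ligand), the TNF receptor family members Tnfrsf4 (OX40), Tnfrsf9 (also called CD137) and Cd27, and the immunoglobulin family receptors Cd28 and Icos. They were taken by gene symbol from a mouse gene array, where each of the 7 had exactly 1 row, out of 19938 genes measured. Tnfsf4 moved in opposite directions at the early and the late time when naive cells were stimulated together with memory cells. It was 2.34-fold higher than in naive cells stimulated by themselves at 18 h and 2.24-fold lower at 96 h. Y-linked transcripts and markers of other cells also differed between these naive cell groups at 96 h, and the part of either was not tested. At 96 h, Cd28 was higher in mixed cultures in both cell types, and Cd27, Tnfrsf4 and Icos were called higher in memory cells from mixed cultures.

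A T cell needs a costimulatory signal beside its antigen receptor to divide and survive. CD28 gives this signal early, when CD80 or CD86 on another cell binds it, and recruits phosphoinositide 3-kinase. ICOS, a relative of CD28, appears after activation and binds ICOS ligand. OX40, CD137 and CD27 belong to the TNF receptor family, bind trimeric ligands (OX40 ligand, CD137 ligand and CD70), and signal through TRAF adaptor proteins to NF-kB, which raises survival genes. In CD8+ T cells CD27 is present on naive cells and is lost late in effector differentiation, whereas OX40 and CD137 are induced by stimulation.

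The cells were CD8+ T cells from spleens of adult C57BL/6 mice aged 6 to 12 weeks, all given as female, that carry the Pmel-1 transgene. Pmel-1 is a T cell receptor transgene specific for a melanocyte antigen, and all 10 groups came from mice that carry it. TMem cells (Ly5.2 Pmel-1 Tg) had been differentiated to memory cells in vitro, and TN cells (Ly5.1 Pmel-1 Tg) were naive cells or the cells derived from them. The stimulus in all stimulated groups was antibody to CD3 and to CD28 with IL-2, so the antibody to CD28 engages the product of 1 member directly. The 10 groups of 3 arrays each were TMem mix 18 h, TMem mix 96 h, TN mix 18 h and TN mix 96 h, in which both cell types were cultured together and then separated by flow sorting, and TMem alone and TN alone at 0 h (no stimulation), 18 h and 96 h, in which each was cultured by itself. The repeats are given as biological, but whether each came from its own mouse is not given in the sources used here. A memory cell made in vitro is a model of memory cells, and mix cultures hold the other cell type until the sort. An effect of mixing below means mix minus alone, and the part of culture and sorting in it was not tested.

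All values are log2 array signals, and a difference of 1 is a 2-fold change. A difference was called at an adjusted p under 0.05 in limma's moderated test across all 19938 genes with Benjamini-Hochberg adjustment, which is the source of every SE and adjusted p below. At 3 arrays in each group the smallest p of an exact permutation test is 0.1, so every call comes from the fit across all genes. A group mean under the mean lower quartile of all values on the group's arrays (5.63 to 5.74) is called near background. Where 1 side of a difference is near background, the true difference may be larger, and a difference between responses may move either way. Signals of different genes on the array were not compared, since probes differ in brightness.

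The CD8 T cell label was borne out by the array: none of 6 markers, among them Cd8a, Cd8b1 and Cd3e, was near background in any of the 10 groups. The label female was not. All 15 TMem arrays had Y-linked transcripts, with Eif2s3y between 8.82 and 9.51, and Xist, the RNA of the inactive X chromosome, between 4.99 and 6.02. TN alone arrays at 0 h and 96 h had Eif2s3y at 4.58 or less and Xist between 9.34 and 12.1. TN arrays at 18 h, mix and alone, and at 96 h in mix had both, with Eif2s3y between 7.34 and 8.50 and Xist between 10.9 and 11.8. In the 96 h comparison of TN cells, mixing and the share of cells with a Y chromosome therefore cannot be told apart, and the same holds for TMem against TN. In TN alone Eif2s3y averaged 4.19 at 0 h, 8.14 at 18 h and 4.17 at 96 h, so time and this share cannot be told apart in the comparisons of TN alone at 18 h with 0 h or 96 h either, nor in the differences between effects or responses that use TN alone at 0 h or 96 h. At 18 h Eif2s3y was 8.21 to 8.50 in TN mix and 8.09 to 8.25 in TN alone. The 0 h arrays spread most, with a median SD over genes of 0.156 in TMem alone 0 h and 0.150 in TN alone 0 h, against 0.0677 to 0.133 in the other 8 groups.

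**Figure D1:**
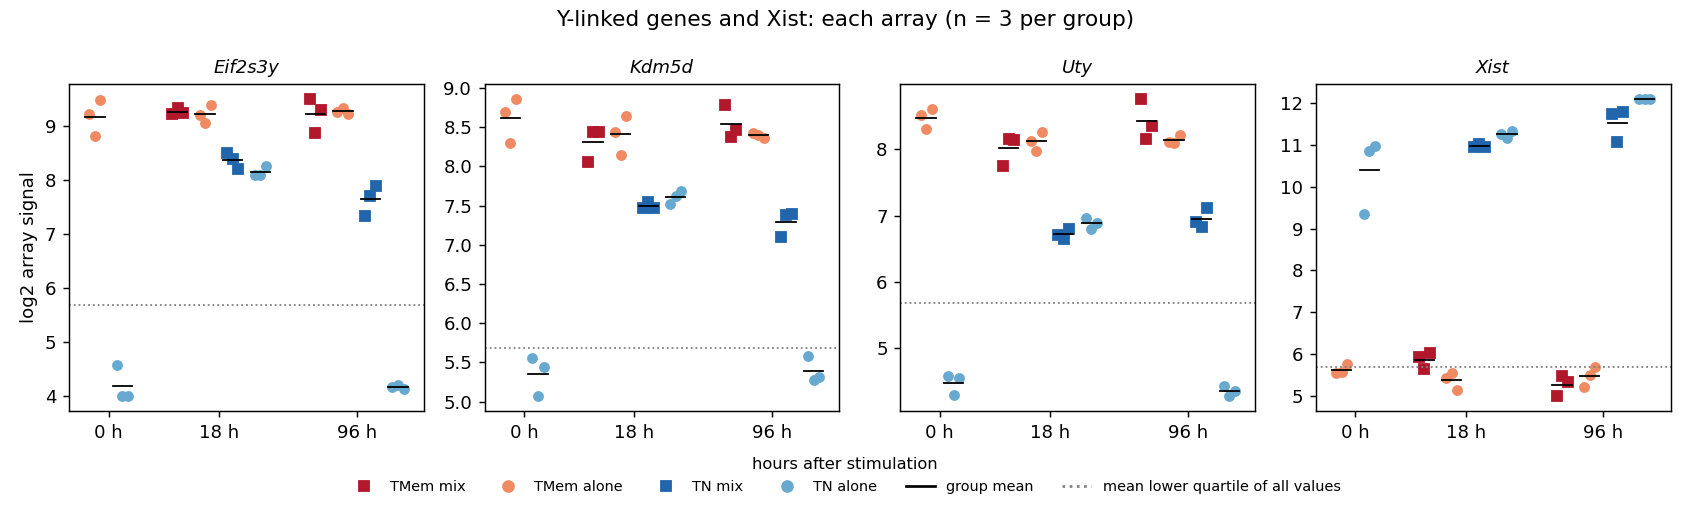
Log2 array signal of 3 Y-linked genes and of Xist on every array, by hours after stimulation. Points are arrays, black lines group means (n = 3), and the dotted line the mean lower quartile of all values. TMem arrays lie high for the Y-linked genes and low for Xist, TN alone at 0 h and 96 h the other way round, and TN at 18 h and TN mix at 96 h high for both.

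Promoter sequence from RefSeq (mouse build GRCm38.p6) was at hand for 4 of the 7 members (Tnfrsf4, Tnfrsf9, Cd27 and Tnfsf8), with 2 annotated starts for Tnfrsf9. The 250 bases before each of the 5 starts were searched on both strands for the NF-kB consensus, for the AP-1 site TGANTCA and for the NFAT core GGAAA, the motifs of factors that CD28 and the T cell receptor are known to activate. Among all 32851 windows of the same length, 3.9% hold the NF-kB consensus, 6.75% the AP-1 site and 55.6% the NFAT core. Only the window before the second start of Tnfrsf9 held the NF-kB consensus and the AP-1 site. Its 3 NF-kB matches, 2 on the plus strand and 1 on the minus strand, overlap one another in 1 run that begins 43 bases before the start, and its AP-1 match starts 15 bases before it. All 5 windows held the NFAT core. Tnfrsf9 is shown with both starts because it had the largest 18 h response of the members in TN alone, and Cd27 beside it because its level was lower at 96 h than at 0 h in both cell types. Capitals mark the NF-kB and AP-1 matches, and each sequence is given 5′ to 3′ on the gene's strand.
Tnfrsf9 second start, chr4:150927749-150927998, plus strand: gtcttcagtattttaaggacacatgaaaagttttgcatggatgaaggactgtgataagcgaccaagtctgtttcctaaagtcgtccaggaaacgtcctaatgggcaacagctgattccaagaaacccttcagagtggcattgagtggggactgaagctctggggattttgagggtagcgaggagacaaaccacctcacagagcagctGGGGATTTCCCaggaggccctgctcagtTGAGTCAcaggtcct
Tnfrsf9 first start, chr4:150919905-150920154, plus strand: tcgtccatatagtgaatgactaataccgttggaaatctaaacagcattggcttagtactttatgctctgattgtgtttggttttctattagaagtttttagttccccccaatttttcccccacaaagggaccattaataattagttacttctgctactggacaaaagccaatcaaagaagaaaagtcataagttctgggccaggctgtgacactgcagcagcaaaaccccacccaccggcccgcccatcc
Cd27, chr6:125237028-125237277, minus strand: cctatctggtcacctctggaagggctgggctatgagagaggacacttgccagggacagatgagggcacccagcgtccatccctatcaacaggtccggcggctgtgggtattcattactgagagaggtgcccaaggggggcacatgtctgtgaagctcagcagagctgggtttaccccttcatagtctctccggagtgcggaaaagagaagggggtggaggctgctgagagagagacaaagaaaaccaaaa

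Over the 10 groups, the 5 TNF and TNF receptor family members had wider ranges of levels than Cd28 and Icos. Tnfrsf9 spanned 4.38 between its lowest and highest group mean on the log2 scale, Tnfrsf4 3.09, Tnfsf4 2.87, Tnfsf8 2.72 and Cd27 2.12. Cd28 spanned 1.22 and Icos 1.06, against a median of 0.516 over all genes. TN alone 0 h was the lowest group for Tnfsf4, Tnfrsf4, Tnfrsf9 and Icos, and TMem alone 96 h for Cd27 and Tnfsf8.

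**Figure D2:**
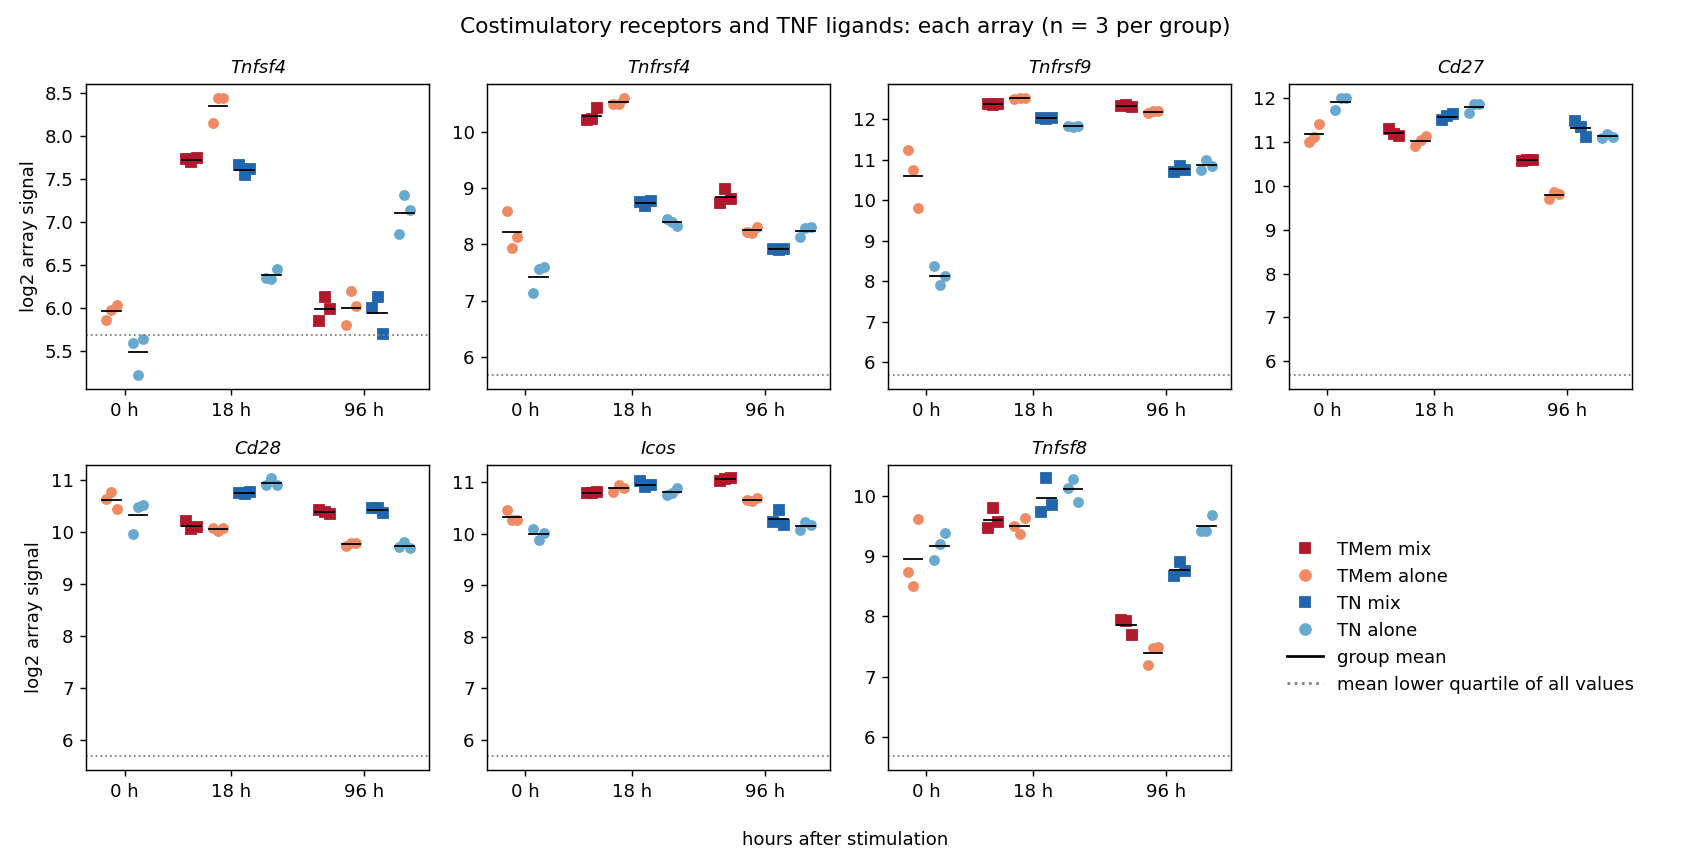
Log2 array signal of the 7 members on every array, by hours after stimulation. Squares are cells from mixed cultures and circles cells cultured alone, black lines group means (n = 3) and the dotted line the mean lower quartile of all values. For Tnfsf4 the TN mix arrays lie above the TN alone arrays at 18 h and below them at 96 h, and for Cd28 the arrays of both mix groups at 96 h lie above those of both alone groups.

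Tnfsf4 encodes the ligand of OX40 and is best known on antigen-presenting cells, though activated T cells make it too. In TN cells at 18 h its signal was 7.67, 7.55 and 7.61 in mix, against 6.34, 6.34 and 6.46 in alone. All 3 mix arrays lay above all 3 alone arrays. The difference of 1.23 (SE 0.13, adjusted p = 7.30e-08) ranked 16 from the highest of 19938 genes, and the mix level came close to that of TMem mix at 18 h (7.73, 7.70 and 7.75). TMem minus TN in mix at 18 h was 0.12 with a 95% interval of -0.14 to 0.38, against 1.97 (SE 0.13, adjusted p = 4.39e-13) for TMem minus TN cultured alone at 18 h.

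In TMem cells the same ligand lay on the other side. Tnfsf4 at 18 h was 7.73, 7.70 and 7.75 in TMem mix, against 8.16, 8.44 and 8.45 in TMem alone. The groups did not overlap, and the difference of -0.62 (SE 0.13) ranked 20 from the lowest of all genes, but it was not called (adjusted p = 0.0883). It was called with array weights (adjusted p = 0.00680), with only the groups compared (0.0149), with a fit that omits the 0 h arrays (0.0216) and with a filter on low values (0.0485). The effect of mixing on TN minus that on TMem at 18 h was 1.85 (SE 0.18, adjusted p = 1.48e-07), rank 2 from the highest among 19938 genes.

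At 96 h the direction in TN cells was the opposite. Tnfsf4 was 5.99, 6.12 and 5.69 in TN mix, against 6.86, 7.31 and 7.13 in TN alone, a difference of -1.16 (SE 0.13, adjusted p = 1.74e-07) that ranked 47 from the lowest. Eif2s3y averaged 7.64 in TN mix and 4.17 in TN alone at 96 h, so mixing and the Y-linked share cannot be told apart here. Several markers of other cells were also lower in TN mix, as given below, and their part was not tested. The TN mix arrays overlapped with the TMem arrays at 96 h, which had 5.84, 6.12 and 5.99 in mix and 5.79, 6.19 and 6.02 in alone. In TMem cells at 96 h the mix effect was -0.02 with an interval of -0.28 to 0.24. The means at 96 h were 5.98 in TMem mix, 6.00 in TMem alone and 5.94 in TN mix. The bounds for near background in these groups were 5.63, 5.65 and 5.69. A fall in TMem cells so close to background had little room to show, and overlap there does not show equal levels. The effect in TN at 96 h minus that at 18 h was -2.39 (SE 0.18, adjusted p = 5.51e-10), rank 5 from the lowest.

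Cultured alone, the cell types differed in the time course of Tnfsf4. TN alone had 5.59, 5.21 and 5.64 at 0 h, near background, then 6.34, 6.34 and 6.46 at 18 h and 6.86, 7.31 and 7.13 at 96 h. TMem alone had 5.86, 5.97 and 6.04 at 0 h, 8.16, 8.44 and 8.45 at 18 h and 5.79, 6.19 and 6.02 at 96 h. TN alone thus rose at both steps (0.90 at 18 h over 0 h, adjusted p = 1.38e-06, a lower bound, and 0.72 at 96 h over 18 h, adjusted p = 5.73e-05), while TMem alone rose by 2.39 at 18 h (adjusted p = 1.09e-14) and had lost it by 96 h. The 96 h level in TMem alone minus the 18 h level was -2.35 (SE 0.13, adjusted p = 2.39e-14). The 18 h response of TMem alone minus that of TN alone was 1.49 (SE 0.18, adjusted p = 2.27e-07). The true difference may lie on either side of this value. TN alone at 0 h was near background, and TMem alone at 0 h averaged 5.96, against a bound of 5.72. Between 18 h and 96 h in TN alone, markers of other cells rose as well (5 of 9 for B cells, 4 of 6 for mast cells and basophils), where 24.4% of all genes were called either way. Eif2s3y averaged 4.17 at 96 h, against 8.14 at 18 h. The part of these cells and of the Y-linked share in the later rise of Tnfsf4 was not tested.

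Tnfsf8 encodes CD30 ligand, a TNF family ligand found on activated T cells. In TN cells at 96 h it was 8.67, 8.91 and 8.76 in mix, against 9.41, 9.41 and 9.68 in alone, so the groups did not overlap. The difference of -0.72 (SE 0.19, adjusted p = 0.0104) was called, though not when TN alone 96 h replicate 3 was omitted (adjusted p = 0.0676). TMem cells at 96 h had 7.94, 7.93 and 7.68 in mix and 7.20, 7.47 and 7.48 in alone, a difference of 0.46 that was not called (SE 0.19, adjusted p = 0.482) except with array weights (0.0380). The TN effect minus the TMem effect at 96 h was -1.19 (SE 0.27, adjusted p = 0.00709).

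Without mixing, Tnfsf8 was highest at 18 h and lowest at 96 h in TMem cells. TMem alone had 8.73, 8.50 and 9.61 at 0 h, 9.51, 9.37 and 9.64 at 18 h and 7.20, 7.47 and 7.48 at 96 h. The 0 h arrays spread widely, the third lying highest, and the 18 h rise over 0 h (0.55, adjusted p = 0.0217) was lost without any 1 of TMem alone 0 h replicates 1 and 2 and TMem alone 18 h replicates 1 and 3 (adjusted p 0.0507 to 0.228) and with only the groups compared (0.1). At 96 h TMem alone was lower than TN alone by 2.12 on the log2 scale (SE 0.19, adjusted p = 1.02e-09), rank 36 from the lowest of all genes. The receptor of this ligand, Tnfrsf8 (CD30), averaged 10.85 in TMem mix, 7.16 in TN mix, 10.92 in TMem alone and 7.82 in TN alone at 96 h.

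Tnfrsf4 encodes OX40, the receptor of the Tnfsf4 product, which signals through TRAF2 and TRAF5. It was highest in TMem cells at 18 h, with 10.20, 10.23 and 10.42 in mix and 10.48, 10.48 and 10.60 in alone, against 8.76, 8.69 and 8.77 in TN mix and 8.45, 8.40 and 8.32 in TN alone. Every TMem array at 18 h lay above every TN array, by 1.55 in mix (SE 0.12, adjusted p = 4.51e-11) and by 2.13 in alone (SE 0.12, adjusted p = 2.79e-14). The 18 h response of TMem alone minus that of TN alone was 1.345 (SE 0.17, adjusted p = 5.64e-07). TMem alone at 96 h (8.23, 8.21 and 8.31) was back at its 0 h level (8.58, 7.93 and 8.14), with a difference of 0.03 and an interval of -0.22 to 0.28.

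Tnfrsf4 was called higher in mix than in alone in TMem cells at 96 h. TMem mix had 8.73, 8.97 and 8.80, against 8.23, 8.21 and 8.31 in TMem alone, a difference of 0.59 (SE 0.12, adjusted p = 0.00779). The call was lost without TMem mix 96 h replicate 2 (adjusted p = 0.0791) or TMem alone 96 h replicate 1 (0.0515). In TN cells the arrays did not overlap at either time but the differences were not called. They were 0.35 at 18 h (SE 0.12, adjusted p = 0.0525) and -0.32 at 96 h (SE 0.12, adjusted p = 0.0881), and their signs are those of Tnfsf4. The 18 h difference was called under 7 alternatives (adjusted p 0.00136 to 0.0471) and the 96 h difference under 4 (0.000479 to 0.0477), among them array weights, only the groups compared and the 0 h arrays left out. At 96 h the TN effect minus the TMem effect was -0.91 (SE 0.17, adjusted p = 0.00117).

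Tnfrsf9 encodes CD137, a receptor of recently activated CD8+ T cells. In TN alone it had the largest 18 h response of the members, while in TMem alone its 1.92 was below the 2.39 of Tnfsf4 and the 2.31 of Tnfrsf4. TN alone had 8.39, 7.92 and 8.13 at 0 h, 11.84, 11.81 and 11.85 at 18 h and 10.74, 11.01 and 10.86 at 96 h. The 18 h level was 3.69 above 0 h (SE 0.18, adjusted p = 3.63e-15), rank 16 from the highest of 19938 genes. TMem cells already had 11.24, 10.76 and 9.81 without stimulation, a wide spread that still lay wholly above TN alone at 0 h (2.46, SE 0.18, adjusted p = 1.12e-11). The 18 h response of TMem alone was smaller than that of TN alone by 1.77 on the log2 scale (SE 0.26, adjusted p = 5.76e-06). Markers of mast cells and CD4 T cells moved in the same comparison, with Cpa3 at -2.84 and Foxp3 at -1.27 (both called). The CD4 T cell markers did not move together: Izumo1r was called lower (-0.60), Tnfrsf8 (0.91) and Il17rb (0.79) higher, and Cd4 was not called (-0.11). The part of these cells in the result was not tested. At 96 h TMem cells kept a higher level than TN cells, by 1.56 in mix (adjusted p = 4.80e-07) and by 1.32 in alone (adjusted p = 2.47e-06). No effect of mixing on Tnfrsf9 was called: the intervals were -0.19 to 0.57 in TN at 18 h, -0.47 to 0.28 in TN at 96 h, -0.52 to 0.23 in TMem at 18 h and -0.23 to 0.53 in TMem at 96 h. These intervals use the spread over all 10 groups. The SD was 0.73 in TMem alone 0 h, against 0.0076 in TN mix and 0.019 in TN alone at 18 h. Mix and alone arrays did not overlap in TN at 18 h (12.02 to 12.035 against 11.81 to 11.85). Nor did they in TMem at 18 h (12.37 to 12.38 against 12.49 to 12.54) or 96 h (12.31 to 12.37 against 12.15 to 12.21). The difference of 0.19 in TN at 18 h was called with a fit that omits the 0 h arrays (adjusted p = 0.0292).

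Cd27 encodes a receptor that naive T cells already carry, and its ligand is CD70. It was lower in TMem than in TN cells in all 5 comparisons of the cell types, by 0.37 to 1.33 on the log2 scale, each with an adjusted p of at most 0.00985. TMem alone had 11.003, 11.12 and 11.41 at 0 h, 10.91, 11.04 and 11.14 at 18 h and 9.71, 9.86 and 9.83 at 96 h. TN alone had 11.73, 12.02 and 12.02 at 0 h, 11.66, 11.86 and 11.86 at 18 h and 11.09, 11.19 and 11.11 at 96 h. Both cell types thus lost signal late, with 96 h minus 0 h at -1.38 in TMem (SE 0.10, adjusted p = 5.68e-11) and -0.79 in TN (SE 0.10, adjusted p = 3.76e-07). In TMem cells at 96 h mixing went with a higher level: 10.57, 10.60 and 10.58 in mix, against 9.71, 9.86 and 9.83 in alone. The difference of 0.78 (SE 0.10, adjusted p = 4.87e-05) ranked 32 from the highest of all genes and was called under every alternative run. In TN cells at 96 h the groups overlapped (11.49, 11.34 and 11.12 in mix, against 11.09, 11.19 and 11.11 in alone), and the difference of 0.19 was not called. The TN effect minus the TMem effect was -0.60 (SE 0.15, adjusted p = 0.0158), a call lost without TN mix 96 h replicate 3 (0.0671) or TMem alone 96 h replicate 1 (0.0584).

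Cd28 encodes the receptor that the stimulating antibody binds. At 96 h it was 10.42, 10.40 and 10.34 in TMem mix, against 9.74, 9.79 and 9.79 in TMem alone. In TN cells it was 10.47, 10.47 and 10.37 in mix, against 9.71, 9.82 and 9.70 in alone. The mix arrays of both cell types lay above the alone arrays of both. The differences were 0.61 in TMem (SE 0.10, adjusted p = 7.72e-04) and 0.69 in TN (SE 0.10, adjusted p = 1.71e-05), both called under every alternative run. Their difference was 0.08 with an interval of -0.21 to 0.38. The 2 comparisons share no arrays, but both mix groups were sorted out of mixed cultures, so they may share cultures. The part of culture and sorting was not tested. At 18 h neither was called, at 0.07 in TMem (interval -0.14 to 0.27) and -0.20 in TN (interval -0.41 to 0.01), the second called with array weights (adjusted p = 0.0220) and without the 0 h arrays (0.0189). The TN effect at 96 h minus that at 18 h was 0.90 (SE 0.14, adjusted p = 6.19e-05).

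The early response of Cd28 had opposite signs in the cell types. TN alone had 9.97, 10.49 and 10.52 at 0 h and 10.92, 11.04 and 10.92 at 18 h, a rise of 0.64 (SE 0.10, adjusted p = 9.44e-06). TMem alone had 10.65, 10.78 and 10.46 at 0 h and 10.09, 10.03 and 10.07 at 18 h, and fell by 0.56 (SE 0.10, adjusted p = 4.63e-05). The response of TMem minus that of TN was -1.20 (SE 0.14, adjusted p = 2.33e-07). The first TN array at 0 h lay below the others, and without it the higher level of TMem alone at 0 h (0.30, adjusted p = 0.0187) was not called (adjusted p = 0.265).

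Icos encodes the inducible relative of CD28 and had the narrowest range of the members. At 96 h it was 11.03, 11.06 and 11.08 in TMem mix, against 10.65, 10.64 and 10.71 in TMem alone, a difference of 0.39 (SE 0.08, adjusted p = 0.00729). The groups did not overlap, and the call was lost without TMem alone 96 h replicate 1 (adjusted p = 0.0515). TMem mix at 96 h was the highest of the 10 groups for this gene. In TN cells mixing was not called at 18 h (0.14, interval -0.02 to 0.31) or at 96 h (0.14, interval -0.03 to 0.30). Stimulation raised it at 18 h by 0.82 in TN alone (SE 0.08, adjusted p = 2.39e-09) and by 0.55 in TMem alone (SE 0.08, adjusted p = 1.90e-06). At 96 h it was higher in TMem than in TN cells, by 0.77 in mix (adjusted p = 5.16e-08) and 0.51 in alone (adjusted p = 1.23e-05).

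Counted over the members, mixing with TN cells was followed by 4 of 7 called higher and 0 lower in TMem cells at 96 h, where 1.12% of all genes were called either way and 0.968% higher. Their median difference was 0.46, against -0.01 over all genes. The members were chosen with earlier results of these data known, so the shares here and below describe them and do not test the set. In TMem cells at 18 h 0 of 7 were called, with 0.0301% of all genes called (6 genes) at an adjusted p under 0.05 and 1 of 7, Tnfsf4, at an unadjusted p under 0.05, where 3.03% of all genes passed. In TN cells 1 of 7 was called at 18 h, where 14.4% of genes were called, and 3 of 7 at 96 h, where 10.6% were called. At 96 h 1 was higher and 2 were lower. Without TMem alone 96 h replicate 1 the count of 4 became 2, Cd27 and Cd28. The arrays of mix and alone did not overlap for 6 of 7 members in TMem at 96 h (21.5% of all genes), 4 of 7 in TMem at 18 h (12.1%), 6 of 7 in TN at 18 h (34.1%) and 4 of 7 in TN at 96 h (27.8%). Between the cell types, the effects of mixing were called different for 2 of 7 members at 18 h (5.17% of all genes) and 4 of 7 at 96 h (3.54%). Between the times they were called different for 3 of 7 in TN (12.4%) and 1 of 7 in TMem (0.196%), and the 18 h responses of the cell types for 4 of 7 (28.9%).

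**Figure D3:**
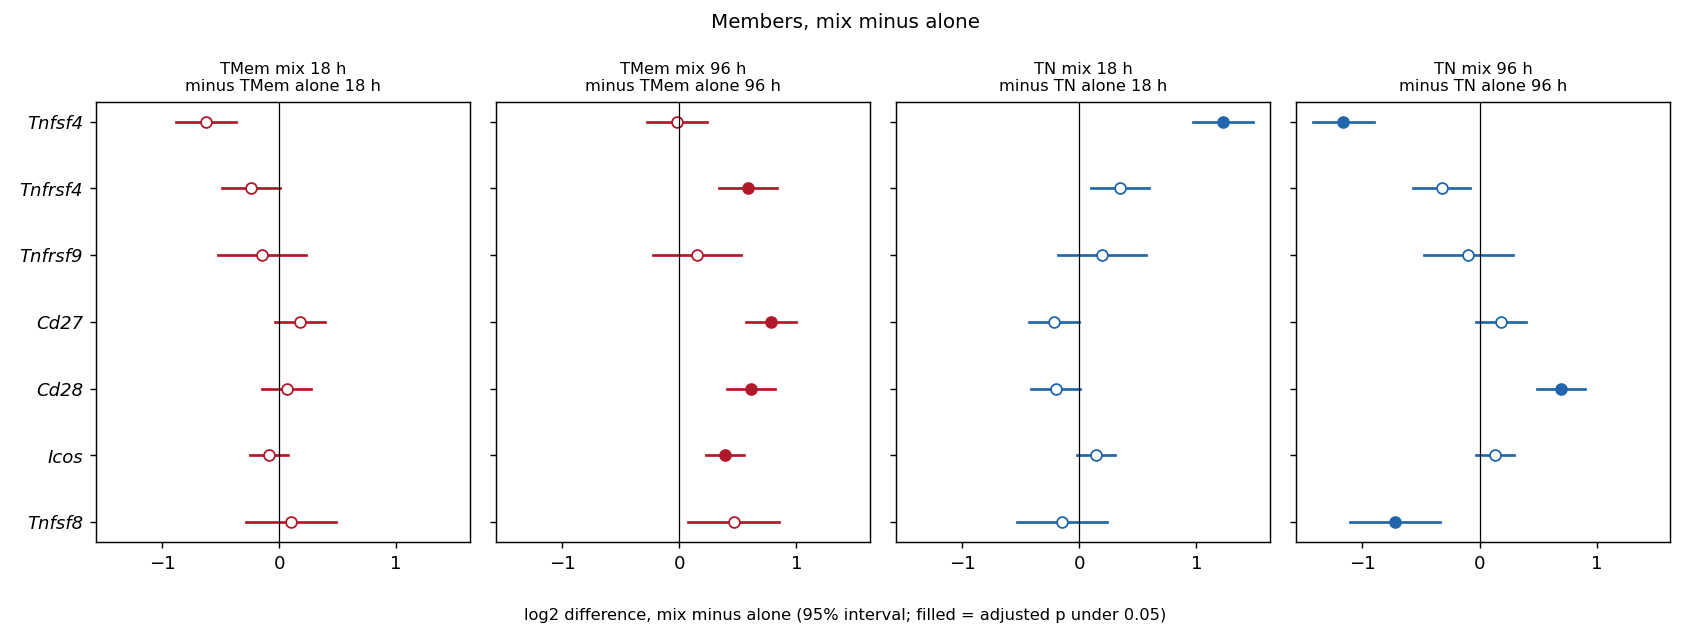
Difference in log2 signal of each member, mix minus alone, for TMem and TN cells at 18 h and 96 h. Points are differences from the fit over 30 arrays, lines 95% intervals, and filled points have an adjusted p under 0.05. Tnfsf4 in TN cells lies at 1.23 at 18 h and -1.16 at 96 h, and Cd28 lies at 0.61 and 0.69 in TMem and TN cells at 96 h.

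For the other comparisons the share of members called was set against the same share of all genes. TMem against TN alone had 6 of 7 members called at 0 h (35.9% of all genes), 6 of 7 at 18 h (28.9%) and 5 of 7 at 96 h (22.2%). TMem mix against TN mix had 3 of 7 at 18 h (20.4%) and 5 of 7 at 96 h (10.6%). Stimulation for 18 h was followed by 6 of 7 called in TN alone (33.8%) and 6 of 7 in TMem alone (35.3%), and 96 h by 5 of 7 in each (36.4% and 24.5%). From 18 h to 96 h, 6 of 7 were called in TN alone (24.4%), 6 of 7 in TMem alone (24.4%), 5 of 7 in TMem mix (27.6%) and 7 of 7 in TN mix (37.1%). All 7 in TN mix were lower at 96 h than at 18 h, where 16.5% of all genes were called lower. Cd27 (-0.26, adjusted p = 0.0472) and Cd28 (-0.32, adjusted p = 0.0132) were the smallest of these, and their calls were lost without TN mix 96 h replicate 3 (adjusted p = 0.253 and 0.0545). In TMem alone, the calls of Cd28 (-0.29, adjusted p = 0.0361) and Icos (-0.22, adjusted p = 0.0444) between 18 h and 96 h were each lost without any of several arrays, up to 0.105 and 0.159.

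The ligands of the receptors are made by antigen-presenting cells and in part by T cells. Tnfsf9, the ligand of CD137, averaged 7.06 ± 0.04 in TN mix and 6.41 ± 0.07 in TN alone at 18 h (SD, n = 3 each), and rose by 0.65 (SE 0.14, adjusted p = 0.00179). It was higher in TMem than in TN cells at 18 h, by 1.003 in mix and 1.69 in alone. Cd86, a ligand of CD28, rose by 0.51 in TN mix at 18 h (SE 0.10, adjusted p = 5.70e-04). Cd80, the other ligand, averaged 7.30 ± 0.14 in TN mix and 8.80 ± 0.15 in TN alone at 96 h, and fell by 1.497 (SE 0.13, adjusted p = 1.86e-09). In TN alone Cd80 was near background at 0 h and 18 h. Icosl, the ligand of ICOS, was lower in TN mix at both times (-0.35 and -0.27). The first call was lost without TN mix 18 h replicate 2 (adjusted p = 0.0553) and the second in 7 of 16 alternatives (up to 0.173). Cd70, the ligand of CD27, was not called in any of the 4 comparisons of mix with alone (-0.10 to 0.23), and Cd40lg was near background in all 10 groups.

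Ctla4, the inhibitory receptor that competes with CD28 for the same ligands, lies between Cd28 and Icos on chromosome 1 with no other protein-coding gene between them in the RefSeq table. In TMem cells at 96 h it averaged 9.54 ± 0.15 in mix and 8.10 ± 0.08 in alone, and rose by 1.44 (SE 0.14, adjusted p = 3.84e-07). All 3 genes of this stretch were thus called higher in TMem mix at 96 h. In TN mix at 96 h Cd28 was called higher while Icos was not called. In TN mix at 18 h Ctla4 rose by 0.56 (adjusted p = 0.00494) while Cd28 and Icos were not called. Tnfrsf18, which encodes GITR and is the next protein-coding gene to Tnfrsf4 on chromosome 4, rose by 0.49 in TN mix at 18 h (SE 0.08, adjusted p = 1.45e-04) and by 0.45 in TMem mix at 96 h (adjusted p = 0.00305), and fell by 0.46 in TN mix at 96 h (adjusted p = 3.59e-04). These 3 signs are those of Tnfrsf4 in the same comparisons. Tnfsf18, the next gene to Tnfsf4, was not called in any of the 4 (-0.11 to 0.14).

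The wider lists of the pathway, 124 of 137 genes matched, were read against the same shares of all genes called, 14.4% in TN at 18 h, 10.6% in TN at 96 h, 0.0301% in TMem at 18 h and 1.12% in TMem at 96 h. Among 12 other TNF receptors of T cells, 3 rose and 4 fell in TN mix at 18 h, with Tnfrsf10b at 0.51 and Tnfrsf26 at -0.66, 1 rose and 3 fell in TN mix at 96 h, with Tnfrsf25, the receptor DR3, at -0.67, and 2 rose in TMem mix at 96 h. Among 13 measured TNF ligands, 4 rose and 1 fell in TN mix at 18 h, with Tnfsf14 (LIGHT) at 0.86 and Tnfsf10 (TRAIL) at -0.57. At 96 h 3 rose and 1 fell, with the death ligand Fasl at 1.38 and Tnfsf10 at -0.96. Their median differences were -0.03 and 0.09 at 18 h, against -0.01 over all genes, and -0.06 and 0.02 at 96 h, against 0.05. Of 12 genes of the CD28 family and its ligands, 4 rose and 0 fell in TMem mix at 96 h, with a median of 0.29. Besides Ctla4 these were Btla, Cd226 and Pdcd1 (0.66, 0.76 and 0.44), whose calls were lost in 2, 2 and 8 of 15 alternatives. In TN mix at 96 h the inhibitory receptor Pdcd1 (PD-1) fell by 0.94 (adjusted p = 8.05e-07).

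Downstream of the TNF receptors, Traf5, an adaptor of OX40 and CD27, fell by 0.96 in TN mix at 18 h (SE 0.10, adjusted p = 7.91e-08), and Map3k14, the NF-kB inducing kinase of the alternative pathway, by 0.55 (SE 0.07, adjusted p = 3.10e-06). Of 21 measured genes of this list 4 rose and 3 fell at 18 h (14.4% of all genes called), and 2 rose and 1 fell at 96 h, a share near that of all genes (10.6%). At 96 h Nfkbia, the NF-kB inhibitor and target gene, rose by 0.62 (adjusted p = 3.61e-04). The survival gene Bcl2l1 (BCL-xL) rose by 0.56 in TN mix at 18 h (SE 0.07, adjusted p = 1.38e-06) and fell by 0.29 at 96 h (adjusted p = 0.00552), the second lost with only the groups compared (0.0697). It was the only call among 7 measured survival genes at 18 h, where Cflar (0.22), Bcl2l11 (-0.28) and Bcl2 (-0.23) were not called. At 96 h 1 of the 7 was higher, Cflar at 0.27, a call lost in 8 of 16 alternatives, and 2 were lower, Bcl2l1 and Bcl3 (-0.29 each), the second lost in 6 of 16. Downstream of CD28, 0 of 17 measured genes rose and 4 fell at 18 h, among them Pik3r1 (-0.63), Prkcq (-0.55) and Pik3cd (-0.48). At 96 h 5 rose and 1 fell, with the kinase adaptor Pik3ap1 at 1.71 (SE 0.23, adjusted p = 4.15e-06), Malt1 at 0.73, Lcp2 at 0.45 and Bcl10 at 0.43. In TMem cells 0 of 21 and 0 of 17 genes of these lists were called at either time, where 0.0301% and 1.12% of all genes were called, so these counts do not set the lists apart from other genes. The calls of Traf5 and Map3k14 at 18 h, Nfkbia at 96 h, and Pik3ap1, Malt1, Lcp2, Bcl10, Pik3r1, Prkcq and Pik3cd named here held in every alternative run.

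**Figure D4:**
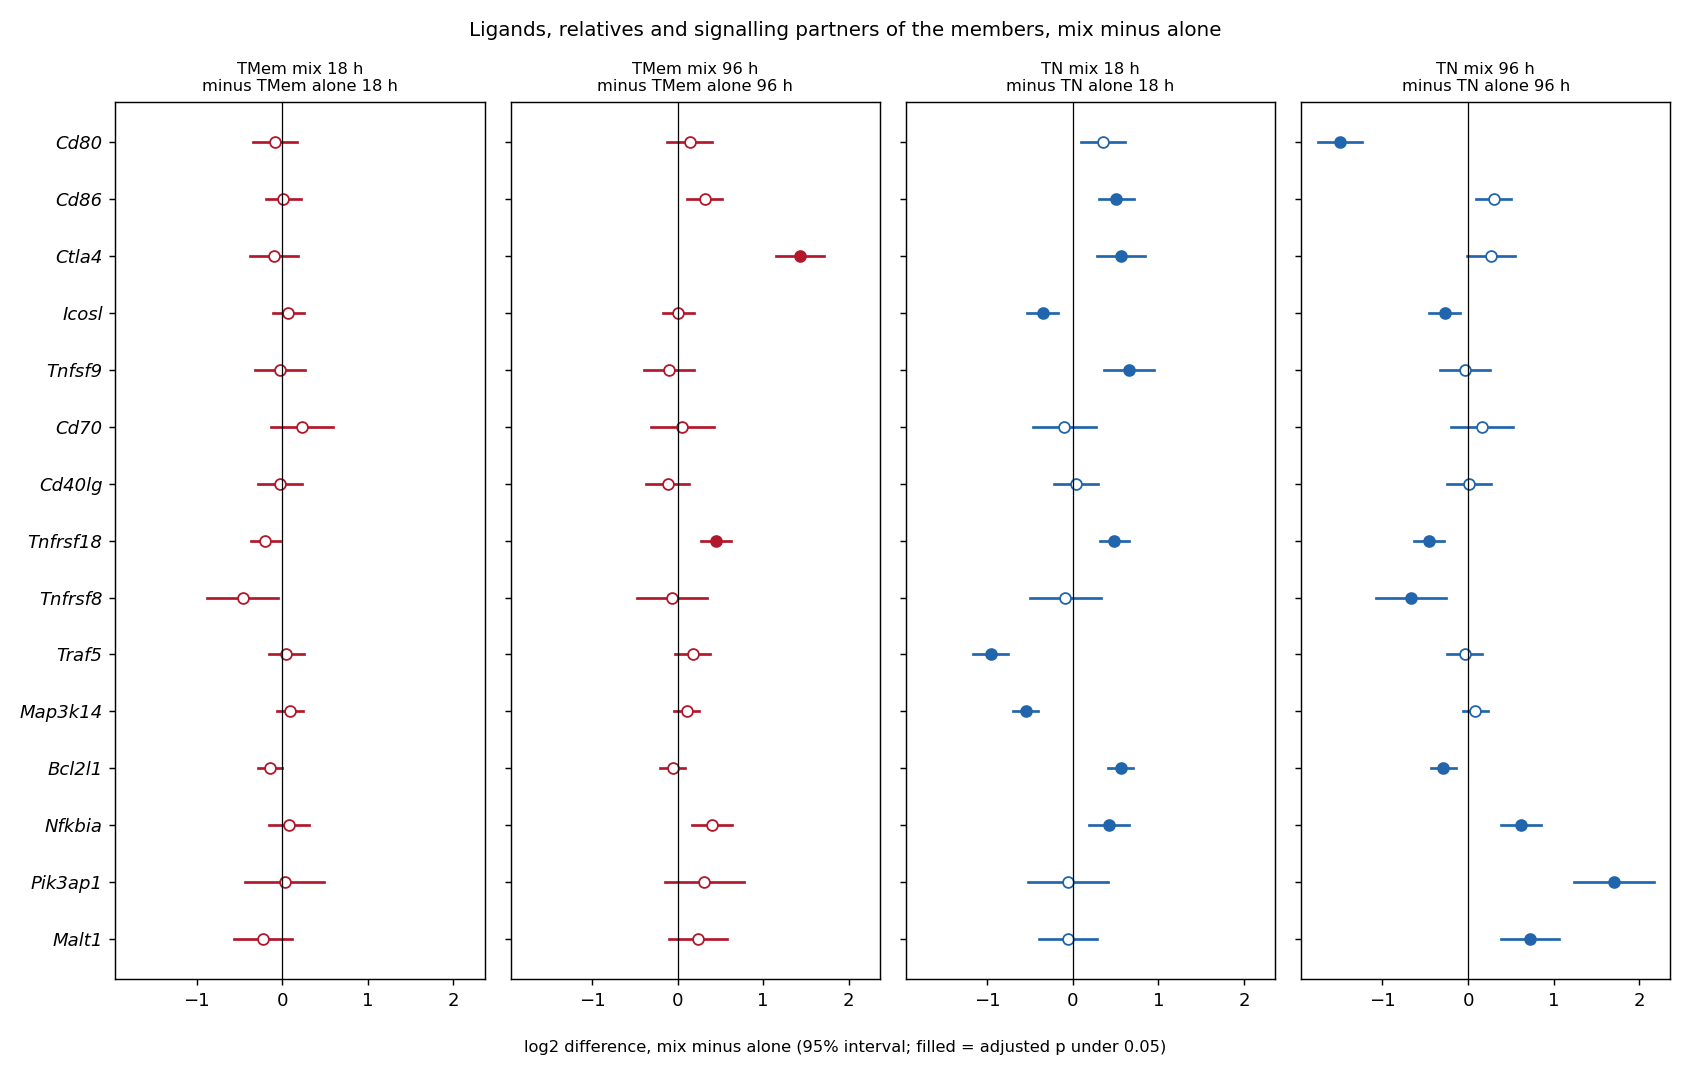
Difference in log2 signal, mix minus alone, of ligands, relatives and signalling partners of the members, for TMem and TN cells at 18 h and 96 h. Points are differences from the fit over 30 arrays, lines 95% intervals, and filled points have an adjusted p under 0.05. Ctla4 lies at 1.44 in TMem cells at 96 h, Cd80 at -1.497 and Pik3ap1 at 1.71 in TN cells at 96 h, and Traf5 at -0.96 in TN cells at 18 h.

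Markers of other cells moved with TN mix against TN alone at 96 h, the comparison in which Tnfsf4, Tnfsf8 and Cd80 were lower. Of all genes 10.6% were called either way in it. In bulk samples fewer cells of a type and less RNA per cell cannot be told apart. Of 9 measured B cell markers 5 were lower, among them H2-Aa (-2.83) and Cd74 (-1.83), and their summed level was 10.4 to 10.6 in TN mix, against 11.7 to 11.8 in TN alone. The defining B cell markers Ms4a1 and Cd79a were near background in all groups. Of 12 markers of myeloid and dendritic cells 2 were lower, Lyz2 (-2.79, near background in TN mix) and Fcer1g (-1.36), with summed levels of 9.49 to 9.67 in TN mix and 10.2 to 10.3 in TN alone, and Adgre1, Clec9a and S100a8 near background in all groups. Of 6 mast cell and basophil markers 4 were lower (8.66 to 8.997 against 9.79 to 9.98, Ms4a2 and Fcer1a near background), of 5 NK cell markers 2 (7.19 to 7.35, all 5 near background, against 8.23 to 8.25, with Klrb1c, Klra8 and Klri2 near background), and of 6 CD4 T cell markers 4, with Foxp3 at -1.49 (9.41 to 9.62 against 10.3 to 10.4, none near background). Cd4 itself averaged 6.48 in TN mix and 6.36 in TN alone, and Zbtb7b 6.95 and 6.52, and neither was called. The lower CD4 T cell markers include Tnfrsf8, the receptor of the Tnfsf8 product. Tnfrsf8 averaged 10.85 in TMem mix at 96 h, where Cd4 averaged 6.45, so its level is not that of CD4 T cells alone. The 6 CD8 markers summed to 14.6 on every array of both groups. Among them Cd2 (0.37, adjusted p = 5.30e-04) and Cd3d (0.42, adjusted p = 0.0126) were called higher in TN mix. The part of these cells in the results at 96 h was not tested. Of all genes 14.4% were called either way in TN mix against TN alone at 18 h, where Cd74 rose by 0.72, 1 of 9 B cell markers. The CD4 T cell marker Izumo1r (-0.40) and the CD8 marker Cd3e (-0.435) were lower, 1 of 6 each, and each call was lost in 3 of 15 alternatives. None of 12 myeloid, 5 NK cell and 6 mast cell and basophil markers was called at 18 h. In TMem mix at 96 h H2-Ab1 (0.92) and Cd79b (0.48) rose, 2 of 9, where 1.12% of all genes were called either way. The Cd79b call was lost without TMem mix 96 h replicate 1 or TMem alone 96 h replicate 1 (up to 0.0857).

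Marker levels also differed between times in cells cultured alone. In TN alone, Cpa3, a protease of mast cells, averaged 6.17 at 0 h, 5.53 at 18 h and 8.58 at 96 h, Foxp3, the regulator of regulatory T cells, 6.81, 7.21 and 8.79, and H2-Aa 6.52, 6.18 and 9.46. From 18 h to 96 h in TN alone 5 of 9 B cell markers, 3 of 12 myeloid, 3 of 5 NK cell, 4 of 6 mast cell and basophil and 2 of 6 CD4 T cell markers were higher, and 1 NK cell marker was lower. Of all genes 24.4% were called either way there, so the myeloid count does not set these markers apart. In TMem alone at 0 h the mast cell and basophil markers summed to 9.63 to 10.7, against 8.35 to 8.44 at 18 h. Of these markers 4 of 6 were lower at 18 h (35.3% of all genes called either way), with Ms4a2 near background at both times. Cpa3 averaged 9.42 ± 0.74 in TMem alone at 0 h (SD, n = 3), and Foxp3 lay between 6.88 and 8.62. In the 18 h response of TMem alone minus that of TN alone, 28.9% of all genes were called either way. There 3 of 6 mast cell and basophil markers were lower, Cpa3 (-2.84), Fcer1a (-1.04) and Kit (-0.78). Of 6 genes listed as CD4 T cell markers 2 were higher, Tnfrsf8 among them, and 2 lower, with Foxp3 at -1.27. The part of these cells in the time courses and in the response differences of the members was not tested.

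The order of the levels showed which neighbouring groups overlapped. Groups joined through such overlaps can still be called different, as Cd28 was between TMem alone at 0 h and 18 h. For Tnfsf4 the order was TMem alone 18 h, TMem mix 18 h, TN mix 18 h, TN alone 96 h and TN alone 18 h, all without overlap between neighbours, followed by 3 TMem groups and TN mix 96 h, whose means of 5.94 to 6.00 overlapped, and by TN alone 0 h. For Tnfrsf4 TMem alone 96 h, TN alone 96 h and TMem alone 0 h (8.22 to 8.25) overlapped, as did TMem mix 96 h and TN mix 18 h. For Cd28 overlap joined all neighbours from TN mix 18 h (10.76) down to TMem alone 18 h (10.07), and for Icos those from TN mix 18 h to TMem mix 18 h (10.96 to 10.79). For Tnfsf8 the 5 groups from TN alone 18 h to TN alone 96 h (10.11 to 9.502) overlapped in turn.

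The genes whose group means followed each member most closely were taken among 4470 genes with a range of at least 1, over the 10 group means. They are a description, since arrays and groups are shared. The 3 for Tnfsf4 were Cmss1 (r = 0.96), Gmppb (0.93) and Cinp (0.93), and those for Tnfrsf4 were Rab34 (0.98), Plk2 (0.97) and Zeb2 (0.97). For Tnfrsf9 they were Gnl3l (0.99), Septin11 (0.98) and Kpna6 (0.98), and for Icos Sult2b1 (0.94), Gnl3l (0.90) and Dusp5 (0.90). For Cd27 they were Slamf6 (0.95), Cd226 (0.94) and Atp1b1 (0.93), and for Tnfsf8 Maml2, Man1a and Ipcef1 (each 0.96). Cd28 had no gene above 0.84 (Arhgef3, Tbc1d30 and Slc15a2). Among the members themselves, Tnfrsf9 went with Icos (0.88), Tnfsf4 with Tnfrsf4 (0.84) and Cd27 with Tnfsf8 (0.83), while Tnfrsf9 and Cd27 ran against each other (-0.51).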

How the data were processed

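RNA from 30 samples was hybridised to 30 mouse gene arrays, 3 for each of 10 groups, after RNeasy extraction and labelling with the WT Expression kit, per the labels' protocols. The deposited values are log2 signals, made with RMA in Partek per the submitters' processing notes, in which no versions are given. They ran between 2.05 and 14.2 with array medians of 6.76 to 6.94. Arrays give no read depth, so the number of arrays limits the precision. Of 35556 rows, 21789 had 1 gene symbol, 1621 several and 12146 none in the platform table used here. For 999 genes with several rows the row with the highest mean was kept, which left 19938 genes. Groups were taken from the labels.

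A single limma fit (version 3.58.1, R 4.3.3) over the 10 groups, with 20 residual degrees of freedom, gave 17 differences between groups and 5 differences between effects, each adjusted by the Benjamini-Hochberg method over all genes. The alternatives were quantile normalisation, centring, array weights, trend and robust moderation, only the groups compared, the 0 h arrays left out, a filter on low values, the mean of a gene's rows, a replicate block and each array left out. Replicate numbers were read as pairs only for TN at 96 h, where same-numbered arrays of mix and alone deviated together (r = 0.489, 0.312 and 0.137). Of 45 pairs of groups 1 other passed this rule, TN mix 18 h with TN alone 0 h (r = 0.276, 0.383 and 0.116), which are not compared here. The members and gene lists were chosen with earlier results of these data known. Genes named beside the members were at most 4 per list, by adjusted p, in each comparison of mix with alone, fixed partners of the members, called or brightest markers, and the 3 genes most alike each member. Tnfsf18, a neighbour, and the marker Fcer1a were added after their values were seen. Figures were drawn with matplotlib 3.10.9.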

Additional observations from a re-analysis of the deposited data

Results flagged for a closer look

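The effect of mixing differed between the cell types, by a test of the difference itself, for 2 members at 18 h. The effect in TN minus that in TMem was 1.85 for Tnfsf4 (adjusted p = 1.48e-07) and 0.585 for Tnfrsf4 (adjusted p = 0.0402) on the log2 scale. The Tnfrsf4 difference was not called when any single one of 11 of the 12 arrays involved was left out (adjusted p 0.0538 to 0.108) or with a replicate block (0.0510).

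At 96 h the effect in TN minus that in TMem was -1.14 for Tnfsf4 (adjusted p = 1.52e-04), -0.91 for Tnfrsf4 (0.00117), -0.60 for Cd27 (0.0158) and -1.19 for Tnfsf8 (0.00709). The Cd27 difference was not called without TN mix 96 h replicate 3 (0.0671) or TMem alone 96 h replicate 1 (0.0584). These 4 involve TN mix and TN alone at 96 h, whose Y-linked transcripts and markers of other cells also differed, and the part of either was not tested. Tnfsf4 in TMem cells at 96 h lay close to background, so a fall there had little room to show.

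The effect in TN cells at 96 h minus that at 18 h was -2.39 for Tnfsf4 (adjusted p = 5.51e-10), -0.67 for Tnfrsf4 (0.00820) and 0.90 for Cd28 (6.19e-05). In TMem cells the same difference was 0.83 for Tnfrsf4 (0.0289), not called when any single one of 10 of the 12 arrays involved was left out (0.0560 to 0.124).

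The response to 18 h of stimulation alone, TMem minus TN, was 1.49 for Tnfsf4 (adjusted p = 2.27e-07), 1.345 for Tnfrsf4 (5.64e-07), -1.77 for Tnfrsf9 (5.76e-06) and -1.20 for Cd28 (2.33e-07). Tnfsf4 was near background in TN alone at 0 h, so its TN response is a lower bound. It was close to background in TMem alone at 0 h as well, so 1.49 may move either way. In TN alone Eif2s3y was 8.14 at 18 h, against 4.19 at 0 h. In the same response difference Cpa3 (-2.84) and Foxp3 (-1.27) were called lower. Of the other genes listed as CD4 T cell markers, Tnfrsf8 (0.91) and Il17rb (0.79) were called higher. The level of Tnfrsf8 did not follow that of Cd4: in TMem alone at 96 h they averaged 10.92 and 6.53. The part of the Y-linked share or of other cells in these 4 differences was not tested.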

How the results depend on the processing

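Of 2485 recomputed member values, 2318 kept direction and side of the threshold, 66 lost a call, 68 gained one and 33 changed sign; of 355 recomputed counts of called members, 312 stayed within 1.5 times. The cause of each change below was not tested. In TN mix against alone at 18 h the count of 1 became 2 with quantile normalisation, centring, trend and robust moderation, only the groups compared or the filter, 3 with array weights and 4 without the 0 h arrays. In TMem mix against alone at 18 h the count of 0 became 1 with array weights, only the groups compared, the 0 h arrays left out or the filter. TMem mix against TN mix at 18 h had 5 in place of 3 with array weights. For TN minus TMem effects at 18 h the count of 2 became 5 without the 0 h arrays and 1 with the replicate block (1 to 2 leaving out single arrays). For TN effects at 96 h minus 18 h, 3 became 6 without the 0 h arrays. For TMem effects at 96 h minus 18 h, 1 became 2 with quantile normalisation or trend and robust moderation, 3 with the filter, 4 with only the groups compared or without the 0 h arrays and 5 with array weights (0 to 1 leaving out single arrays). TMem mix against alone at 96 h had 2 to 4 leaving out single arrays. Signs changed for values near 0: with quantile normalisation, TMem minus TN alone at 96 h was -0.0235 for Tnfrsf4 and -0.0555 for Cd28, Tnfrsf4 in TMem alone at 96 h minus 0 h -0.0124, and Icos in the TN effect at 96 h minus 18 h 0.0199. With centring, Tnfsf4 in TMem mix minus alone at 96 h was 0.0020 and the 18 h response difference of Cd27 0.16. With array weights these were 0.0047 and 0.19, Tnfrsf4 in TMem minus TN alone at 96 h -0.0148, Cd28 in TMem mix minus TN mix at 96 h 0.0029, and Tnfrsf4 in TMem alone at 96 h minus 0 h -0.22 (adjusted p = 0.0489). Leaving out single arrays, the ranges were -0.0963 to 0.0497 for the Icos value, -0.106 to 0.0992 for Cd27, -0.121 to 0.0767 for Tnfsf4 in TMem mix minus alone at 96 h, -0.0753 to 0.139 in TMem mix minus TN mix at 96 h, -0.05 to 0.148 in TMem alone at 96 h minus 0 h, and for Tnfrsf4 -0.0438 to 0.0387 in TMem minus TN alone at 96 h and -0.112 to 0.213 in TMem alone at 96 h minus 0 h.

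With the replicate block, TN mix against alone at 96 h kept the calls of Tnfsf4 (adjusted p = 2.59e-07), Cd28 (3.00e-05) and Tnfsf8 (0.00932), and with the block and only the groups compared, chosen after seeing the data, Tnfrsf4 was called as well (0.0274). The block ended the calls of Icos in TMem alone at 96 h against 18 h (0.0588) and of the Tnfrsf4 difference at 18 h (0.0510), and no other member call. Counts over all genes moved by over 1.5 times: 2881 to between 1897 and 4853 in TN at 18 h, 2117 to at most 6343 in TN at 96 h, 6 to between 1 and 100 in TMem at 18 h, 223 to between 105 and 906 in TMem at 96 h, 7151 to 4091 for TMem against TN alone at 0 h, 4420 to 8205 at 96 h, 4070 to 6107 in mix at 18 h, 2117 to 4909 in mix at 96 h, 4868 to 7546 for TMem alone at 96 h against 18 h, and 1031 to 2941, 705 to 3202, 2475 to 5147 and 39 to between 18 and 330 for the first 4 differences between effects. Centring shifted all genes by -0.123 for TMem minus TN at 0 h, by -0.135 and -0.106 for TN alone at 18 h and 96 h minus 0 h, and by 0.179 for the difference in 18 h response. It moved the share of higher calls to 34.4% from 51.2%, to 29.99% from 50.7% (33.8% with quantile normalisation), to 35.3% from 51.0% and to 70.7% from 49.2% (60.3%), and to 54.3% from 43.6% for TN mix at 18 h and 38.0% from 27.8% for the difference of effects at 18 h; quantile normalisation gave 14.3% in place of 0% for TMem mix at 18 h.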
